A study of Musculus with 2 samples.

Results

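Lyve1+ Folr2+ macrophages of mouse subcutaneous white adipose tissue (sWAT) were taken from single-cell RNA sequencing of the stromal vascular fraction, the cells that remain once mature fat cells have been removed. The cells were chosen by their UMIs (counted RNA molecules) of 14 genes. A barcode belonged to them when 500 or more genes were detected, mitochondrial genes gave at most 10% of its UMIs, and it held 10 or more UMIs of the complement genes C1qa, C1qb and C1qc together and 1 or more of the macrophage receptor gene Csf1r. It also had to hold 1 or more UMIs of Lyve1, 2 or more of Folr2 and Cd163 together, fewer than 10 of the fibroblast gene Dcn and at most 1 of the endothelial gene Pecam1. Cells with 15 or more interferon UMIs (Rsad2, Ifit1 and Ifit3) or 3 or more division UMIs (Mki67 and Top2a) were left out. These limits gave 4150 cells of 26637 barcodes, 1704 in the LPCAT3-AKO library and 2446 in the Control library. The 1195 cells that passed all limits except those on Lyve1 or on Folr2 and Cd163 are called other C1q-high macrophages here, 570 in LPCAT3-AKO and 625 in Control.

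Macrophages that carry LYVE1, a receptor for hyaluronan, and FOLR2, a folate receptor, are found along vessels and in connective tissue of many organs. They are known as long-lived tissue-resident cells that are rich in scavenger receptors, take up dead cells and debris, and recycle haem iron. A second macrophage state, with more MHC class II, CCR2 and lysozyme, is replaced from blood monocytes to a larger extent. In fat, resident macrophages are known to clear lipid and to release growth factors for blood vessels and fat cell precursors. Residency, origin and position in the tissue were not measured here.

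The study asked how blocking the remodelling of phosphatidylcholine in adipose tissue bears on insulin sensitivity. LPCAT3 is an enzyme of the endoplasmic reticulum that attaches polyunsaturated fatty acids to lysophosphatidylcholine. One library came from LPCAT3-AKO mice (genotype label LPCAT3 knockout) and 1 from Control mice (genotype label WT). The sample labels give mice of 5 weeks for both libraries, whereas the series text gives an age of 2 months and names the diet only as CD. The sources used here do not name the Cre driver, the deleted cells or how many mice gave each library. Tissue of both libraries was minced, digested with collagenase and treated to lyse red cells.

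With 1 library per group there was no replicate, so no p-value was computed and every value describes these libraries. Intervals are 95% intervals for counting error only, exact except for ratios of shares of cells. Depth came to 119355147 UMIs over 12806 barcodes in LPCAT3-AKO and 111669076 UMIs over 13831 barcodes in Control. Lyve1+ Folr2+ macrophages had a median of 7819 UMIs per cell in LPCAT3-AKO and 6292 in Control, so their depth differed between the libraries. Levels are given on the CPM scale: the summed UMIs of a gene in a population and library were divided by that population's total in the same library. Of all barcode sequences, 58 occurred in both libraries, among them 4 Lyve1+ Folr2+ cells in LPCAT3-AKO and 12 in Control. No UMI of the Y-linked genes Ddx3y, Eif2s3y, Kdm5d and Uty was found in these cells in either library.

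The label was checked on 3 markers that the limits did not use. Cd209f, a C-type lectin receptor gene, had 1090 CPM in Lyve1+ Folr2+ macrophages and 101 CPM in other C1q-high macrophages of the LPCAT3-AKO library, and 1183 and 137 CPM in the Control library. Cbr2, a carbonyl reductase gene, had 1265 CPM in Lyve1+ Folr2+ macrophages against 312 CPM in the others in LPCAT3-AKO, and 1106 against 276 CPM in Control. Pf4, which encodes the chemokine CXCL4, had 2362 against 955 CPM in LPCAT3-AKO and 2228 against 1037 CPM in Control. All 3 were higher in Lyve1+ Folr2+ cells of both libraries, although these markers and the limits come from the same cells and the contrast is therefore a description. The genes of the limits themselves were necessarily high: Lyve1 had 2014 CPM in LPCAT3-AKO and 2416 CPM in Control, Folr2 1719 and 1596 CPM, and Cd163 1293 and 1331 CPM. The general macrophage gene Adgre1 (F4/80) was at similar levels in both populations, with 432 CPM in Lyve1+ Folr2+ cells and 413 CPM in the others of LPCAT3-AKO, and 366 and 432 CPM in Control.

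**Figure D1:**
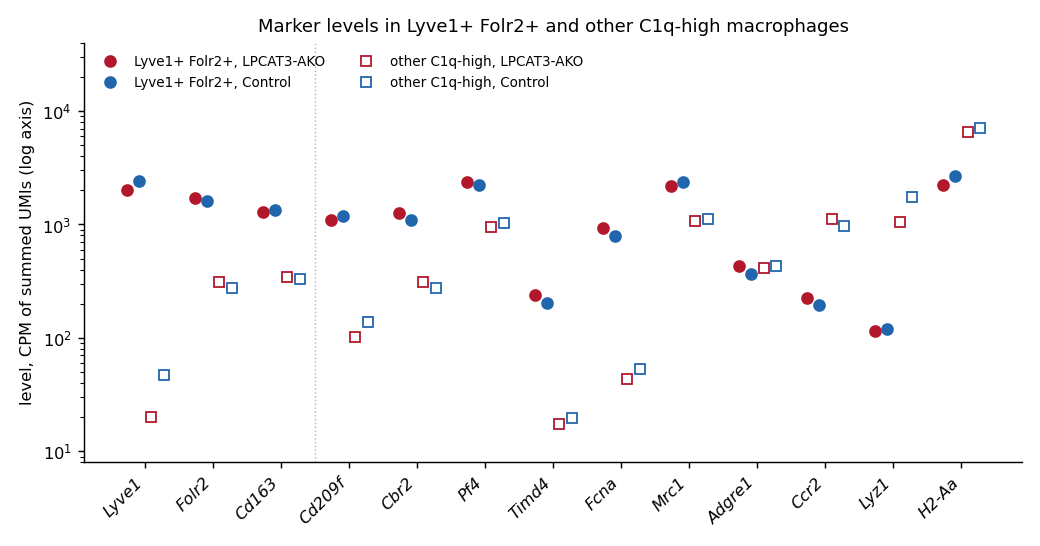
Levels of 13 genes in CPM (log axis) in Lyve1+ Folr2+ macrophages (filled circles) and other C1q-high macrophages (open squares) of the LPCAT3-AKO (red) and Control (blue) libraries, 1 point per population and library. The 3 genes left of the dotted line were part of the limits. Timd4 and Fcna were over 10 times higher in the Lyve1+ Folr2+ cells of both libraries, whereas Ccr2, Lyz1 and H2-Aa were lower.

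Free RNA can give UMIs to cells that do not express a gene, so shares of cells were compared after each cell was thinned to 3000 UMIs, with cells high in Dcn and without Csf1r as a background population. This left out 103 shallower Lyve1+ Folr2+ cells in LPCAT3-AKO and 229 in Control. Cd209f was then found in 74.95% of Lyve1+ Folr2+ cells, 17.4% of other C1q-high macrophages and 2.73% of Dcn-high cells in LPCAT3-AKO, and in 78.1%, 18.0% and 2.35% of them in Control. Cbr2 was found in 92.8%, 48.9% and 3.75% in LPCAT3-AKO, and in 91.8%, 40.5% and 3.72% in Control. Timd4, which encodes the phosphatidylserine receptor TIM-4, was found in 42.2%, 5.52% and 0.703% in LPCAT3-AKO, and in 39.1%, 5.87% and 0.424% in Control. All of these shares in Lyve1+ Folr2+ cells lay far above the background population. The median depth before thinning was 9489 UMIs for Dcn-high cells in LPCAT3-AKO and 9687 in Control.

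Lyve1+ Folr2+ macrophages were the majority of the C1q-high macrophages in both libraries, and a smaller share of all cells in LPCAT3-AKO. They were 14.6% of kept barcodes in LPCAT3-AKO (interval 14.0 to 15.3%) and 19.7% in Control (19.0 to 20.4%), a ratio of 0.742 (0.701 to 0.785). Of the C1q-high macrophages they were 74.9% in LPCAT3-AKO (73.1 to 76.7%) and 79.6% in Control (78.2 to 81.1%), a ratio of 0.941 (0.913 to 0.969). When the limits were applied to cells thinned to 5000 UMIs, the ratio of shares of kept barcodes was 0.833. A share of barcodes also depends on how many other cells a library holds, and with 1 library per group the variation between animals is unknown.

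The limits cut a continuous range. Among Lyve1+ Folr2+ cells, 8.86% in LPCAT3-AKO and 6.99% in Control held exactly 1 Lyve1 UMI, and 57.3% and 59.0% held 10 or more. Just inside the limit, cells with 1 Lyve1 UMI had 272 CPM of Cd209f in LPCAT3-AKO and 516 CPM in Control. Just outside it, cells with no Lyve1 UMI but 2 or more of Folr2 and Cd163 had 181 and 224 CPM. The MHC class II gene H2-Aa had 5554 CPM in LPCAT3-AKO and 6331 CPM in Control just inside, and 6493 and 7117 CPM just outside. Cells with 10 or more Lyve1 UMIs had 1394 CPM of H2-Aa in LPCAT3-AKO and 1784 CPM in Control, and 1288 and 1352 CPM of Cd209f. In both genes the cells next to the limit were closer to their neighbours outside it than to the cells far inside. For Cd163 it was the reverse, with 998 CPM in LPCAT3-AKO and 1141 CPM in Control just inside, 684 and 742 CPM just outside and 1272 and 1307 CPM in cells with 10 or more Lyve1 UMIs. A further 364 cells in LPCAT3-AKO and 503 in Control passed the Lyve1, Folr2 and Cd163 limits but were left out for interferon or division UMIs.

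Genes were set against the other C1q-high macrophages within each library. A gene was called when it reached 20 CPM in the population with the higher level, the populations differed by a ratio of at least 2 and the interval of that ratio excluded 1, in the same direction in both libraries. Of 5932 genes tested, 281 (4.74%) were higher and 203 (3.42%) lower in Lyve1+ Folr2+ cells. The median log2 ratio of CPM + 1 over all genes was 0.10 in LPCAT3-AKO and 0.12 in Control, and centring on it gave 213 higher and 226 lower genes. Since the limits used the same cells, these counts and the values below describe the cells and test nothing.

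**Figure D2:**
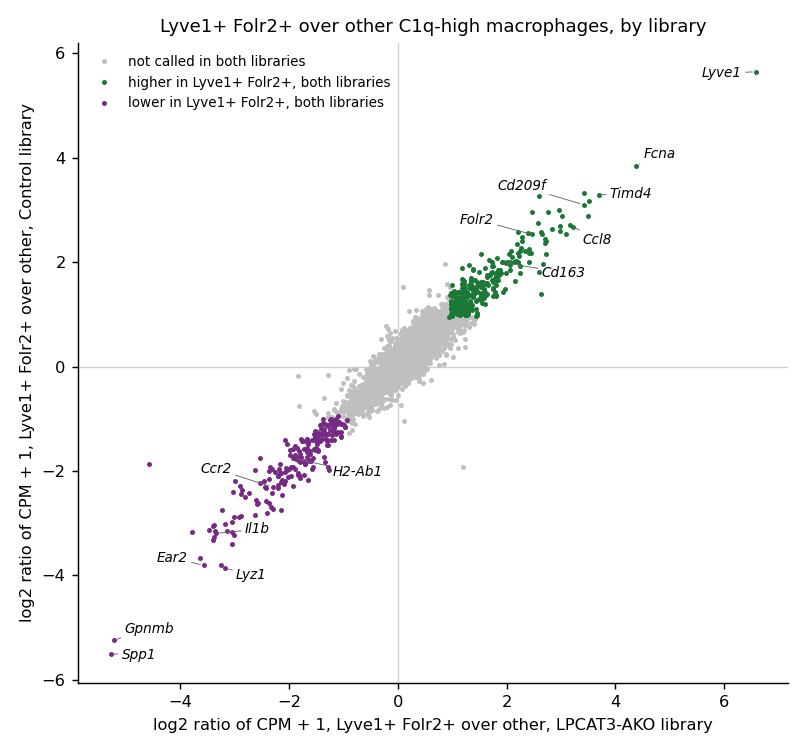
Log2 ratio of CPM + 1, Lyve1+ Folr2+ over other C1q-high macrophages, in the LPCAT3-AKO library (x) and the Control library (y); each point is 1 of 5932 genes. The 281 genes called higher in both libraries are green and the 203 called lower are purple, with Fcna and Timd4 far up and Lyz1, Ear2 and Il1b far down in both.

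Leaving aside the genes of the limits, Fcna, Fgf9 and Timd4 were furthest above the other macrophages. Fcna, which encodes the serum lectin ficolin A that starts the lectin pathway of complement, had 926 CPM in Lyve1+ Folr2+ cells against 43.5 CPM in the others in LPCAT3-AKO (ratio 21.3, interval 18.5 to 24.7). In Control it had 786 against 53.6 CPM (ratio 14.7, 12.8 to 16.8). Timd4 had 238 against 17.4 CPM in LPCAT3-AKO and 202 against 19.7 CPM in Control, ratios of 13.7 (10.9 to 17.3) and 10.3 (8.21 to 12.96). Fcna and Timd4 were thus over 10 times higher in the Lyve1+ Folr2+ cells of each library. Lectin receptor genes of the CD209 family followed: Cd209g had 371 against 45.1 CPM in LPCAT3-AKO and 451 against 60.2 CPM in Control. Cd209d had 433 against 45.5 CPM in LPCAT3-AKO and 388 against 59.5 CPM in Control. Colec12, a scavenger receptor with a collectin domain, had 124 against 16.5 CPM in LPCAT3-AKO and 116 against 18.0 CPM in Control. C6, a component of the membrane attack complex of complement, had 123 against 9.96 CPM in LPCAT3-AKO and 113 against 14.5 CPM in Control.

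Other genes with high ratios encode enzymes, a chemokine and a growth factor. Ltc4s, which encodes leukotriene C4 synthase, had 393 against 49.4 CPM in LPCAT3-AKO and 406 against 50.2 CPM in Control (ratios 7.97 and 8.09). Alox5, which encodes the first enzyme of leukotriene synthesis, was also called higher, with 84.2 against 28.5 CPM and 95.7 against 30.5 CPM. Ptgs2 (COX-2), the inducible enzyme of prostaglandin synthesis, was called lower, with 70.9 against 523 CPM in LPCAT3-AKO and 91.3 against 475 CPM in Control. Ccl8, a chemokine, had 1426 against 157 CPM in LPCAT3-AKO and 1823 against 279 CPM in Control. Enpep, the angiotensin-cleaving aminopeptidase A, had 111 against 8.83 CPM and 99.5 against 10.1 CPM. Fgf9, a fibroblast growth factor, was near the 20 CPM limit in Lyve1+ Folr2+ cells and lower in the others, with 21.8 against 1.13 CPM in LPCAT3-AKO and 21.4 against 1.23 CPM in Control. Dennd2a, Gprc5b, Rcn3 and Arsg completed the 15 genes with the highest ratios outside the limits. Their log2 ratios were 2.60 to 2.99 in LPCAT3-AKO and 2.61 to 3.26 in Control. Dcn-high cells had 342 and 269 CPM of Rcn3, 71.7 and 69.0 CPM of Gprc5b and 59.5 and 63.0 CPM of Dennd2a. These levels were above those of Lyve1+ Folr2+ cells, whereas Arsg was below, at 4.38 and 4.09 CPM. The part of free RNA in these genes was not tested.

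Il1b, Lyz1, Ear2, Spp1 and Gpnmb were among the lowest genes. Il1b, the cytokine interleukin-1β, had 170 CPM in Lyve1+ Folr2+ cells against 1737 CPM in the others in LPCAT3-AKO and 223 against 2053 CPM in Control. Lyz1, a lysozyme gene, had 115 against 1050 CPM and 120 against 1756 CPM. Ear2, an eosinophil-associated ribonuclease gene, had 38.3 against 463 CPM and 47.1 against 672 CPM. All 3 genes were lower in the Lyve1+ Folr2+ cells of each library, with ratios of 0.0683 to 0.110. Thbs1, Bcl2a1a, F10, Ndnf and Cx3cr1 were also among the 10 lowest, at log2 ratios of -3.17 to -3.80. Spp1 (osteopontin) and Gpnmb, genes of lipid-laden macrophages, had the lowest ratios, with 1.80 against 108 CPM and 0.760 against 64.8 CPM in LPCAT3-AKO. With likely doublets removed, their log2 ratios nearest 0 over the libraries were -0.62 and -0.06 and neither was called.

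Of 29 measured genes of a resident macrophage signature, 25 were called higher and none lower. Median log2 ratios were 1.91 in LPCAT3-AKO and 1.80 in Control. The list holds the genes of the limits, which the choice of cells raised. Its count and medians are thus in part set by that choice, and values without those genes were not computed. The LPCAT3-AKO median equals the log2 ratio of Cd163, a gene of the limits. Outside the limits, F13a1, the A subunit of coagulation factor XIII, had 3361 against 1243 CPM in LPCAT3-AKO and 3559 against 1280 CPM in Control. Selenop, the selenium transport protein, had 5649 against 2156 CPM and 4644 against 1844 CPM. The exception in sign was Fcrls, an Fc receptor-like gene, at 353 against 668 CPM and 354 against 694 CPM, which missed the ratio of 2. Of 28 scavenger and endocytic receptor genes, 14 were higher and none lower, among them Mrc1 (CD206), Stab1 and Fcgrt, the neonatal Fc receptor. Lyve1 and Folr2 of this list, like the haemoglobin receptor gene Cd163, were part of the limits, so the choice of cells raised them. Of 18 haem and iron genes, 6 were higher and none lower, where 4.74% of all genes were higher and 3.42% lower. Cd163, treated here as an iron gene and called higher, was raised by the choice of cells and is no free observation. Among the higher genes outside the limits, Hmox1, haem oxygenase, had 788 against 350 CPM in LPCAT3-AKO and 804 against 361 CPM in Control. Cp, the ferroxidase ceruloplasmin, had 171 against 31.2 CPM and 181 against 37.1 CPM. Of 14 growth factor genes, 6 were higher and 1 lower. Igf1 had 358 against 163 CPM in LPCAT3-AKO and 301 against 131 CPM in Control, and Pdgfc 135 against 28.5 CPM and 151 against 36.6 CPM. The lower one was Areg (amphiregulin), at 59.5 against 297 CPM and 51.4 against 346 CPM. In the Lyve1+ Folr2+ cells with fewer than 10 UMIs of 7 epithelial genes, Areg had 23.7 CPM in LPCAT3-AKO and 28.9 CPM in Control. Of 15 complement genes, 5 were higher and 1 lower.

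Of 12 genes of MHC class II presentation, 8 were lower and none higher, with medians of -1.65 in LPCAT3-AKO and -1.49 in Control. H2-Ab1 had 1458 against 5536 CPM in LPCAT3-AKO and 1868 against 6312 CPM in Control, and Ciita, the transcriptional activator of the class II genes, 34.0 against 115 CPM and 31.6 against 115 CPM. Of 11 monocyte genes, 7 were lower and none higher. They included Ccr2, the receptor that draws monocytes into tissue, at 225 against 1116 CPM in LPCAT3-AKO and 195 against 969 CPM in Control. Fn1 (fibronectin) had 204 against 1704 CPM and 208 against 1878 CPM. Of 31 inflammatory genes, 11 were lower and 1, Tlr4, higher. Of 10 genes of Lyve1-negative macrophages, 4 were lower and none higher. Retnla, which encodes the resistin-like protein RELMα and belongs to that list, was among the most abundant genes of both populations, with 15092 against 18712 CPM in LPCAT3-AKO and 16471 against 21564 CPM in Control.

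In the other lists, calls were fewer or went both ways. Of 15 genes of lipid-associated macrophages, 3 were higher (Apoe, Ctsl and Trem2) and 5 lower, among them the lipase gene Lpl at 167 against 904 CPM in LPCAT3-AKO and 167 against 845 CPM in Control. Of 25 macrophage transcription factor genes, 4 were higher (Maf, Klf2, Tcf4 and Rxra) and 2 lower (Bhlhe40 and Id2). Maf, a factor of macrophage identity, had 2163 against 773 CPM in LPCAT3-AKO and 1943 against 664 CPM in Control. Of 17 genes of apoptotic cell uptake, 3 were higher and 2 lower. Gas6, the bridging ligand of the TAM receptors, had 1037 against 218 CPM in LPCAT3-AKO and 938 against 200.4 CPM in Control. Of 15 chemokine genes, 3 were higher and 2 lower, of 42 interferon genes 4 and 1, and of 29 immediate-early genes 2 and 6. Of 17 matrix and coagulation genes, 3 were higher and 6 lower, and of 15 cholesterol efflux genes and LXR targets 2 were higher and 2 lower. Of 32 lysosome genes, 1 was higher (Ctsl, cathepsin L) and none lower. Of 14 heat shock genes none was called, and of 10 cell cycle genes 1, Mcm5, was lower.

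Lyve1+ Folr2+ macrophages were not uniform. After thinning to 3000 UMIs, the ratio of variance to mean over cells was compared for 4042 genes, whose median was 1.07 in LPCAT3-AKO and 1.062 in Control (a ratio of 1 is that of pure counting noise). The largest ratios belonged to Retnla, at 25.9 in LPCAT3-AKO and 23.3 in Control, and to the nuclear RNA Malat1, at 30.6 and 22.5. Cd74, the invariant chain of MHC class II, followed with 16.7 and 14.0. Its 10th percentile, median and 90th percentile were 0, 11 and 41 UMIs per thinned cell in LPCAT3-AKO and 1, 17 and 43 in Control. H2-Aa, H2-Ab1 and H2-Eb1 were also among the 15 genes with the largest ratios, called the most variable genes here. Their ratios were 8.17 to 11.96 in LPCAT3-AKO and 7.13 to 9.28 in Control. The remaining ones were the chemokine genes Cxcl2, Ccl8 and Ccl4, the apolipoprotein gene Apoe, Il1b, the immediate-early gene Egr1, the interferon gene Ifi27l2a, Lyz1 and the heat shock gene Hspa1b. The ratio was not adjusted for the level of a gene, so its order is not one of relative variation. Mean UMIs per thinned cell in LPCAT3-AKO were 44.7 for Retnla and 0.397 for Il1b. Ccl8 was found in 65.1% of thinned cells in LPCAT3-AKO and 70.0% in Control, against 13.3% and 10.1% of Dcn-high cells.

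To describe the MHC class II axis, the thinned cells of each library were divided into tertiles by their summed UMIs of H2-Aa, H2-Ab1, H2-Eb1 and Cd74. Cells with 10 or more UMIs of 7 epithelial genes were left out. The tertiles held 531 cells each in LPCAT3-AKO and 735, 736 and 736 in Control. Their medians from low to high were 2, 19 and 70 class II UMIs in LPCAT3-AKO and 4, 30 and 76 in Control. Depth ran the other way, with median totals of 9678, 7981 and 6771 UMIs from low to high in LPCAT3-AKO and 7292, 6706.5 and 5940.5 in Control, and the part of depth in these values was not tested. Of 5841 genes, 80 (1.37%) were higher and 38 (0.651%) lower in the highest than in the lowest tertile by a ratio of 2 in both libraries. Since each library was cut at its own class II levels, a tertile holds unlike levels in LPCAT3-AKO and Control.

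Of 30 genes of the resident signature, Fcna, Timd4 and Vsig4 were called lower in the highest tertile and none higher, with medians of -0.42 in LPCAT3-AKO and -0.54 in Control beside -0.06 and -0.07 over all genes. From the low to the high tertile, Timd4 had 347, 228 and 119 CPM in LPCAT3-AKO and 275, 209 and 120.3 CPM in Control. Fcna had 1316, 919 and 491 CPM in LPCAT3-AKO and 1199, 775 and 401 CPM in Control. Lyve1, which the limits used, had 2549, 2140 and 1305 CPM in LPCAT3-AKO and 3261, 2569 and 1468 CPM in Control. Thus Timd4 and Fcna stepped down across the tertiles of both libraries. Pf4, of the same signature, had 2441, 2467 and 2255 CPM in LPCAT3-AKO and 2102, 2311 and 2373 CPM in Control and was not called. Colec12, C6, Hpse (heparanase), Cd5l, Enpep and the complement gene C2 were called lower in the highest tertile too, with log2 ratios of -1.38 to -1.87 in LPCAT3-AKO and -1.31 to -2.01 in Control.

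Of 9 monocyte genes, Ccr2, Fn1, S100a4 and S100a6 were called higher in the highest tertile and none lower, with medians of 0.74 in LPCAT3-AKO and 1.16 in Control. Ccr2 had 59.4, 235 and 448 CPM from low to high in LPCAT3-AKO and 43.5, 178 and 394 CPM in Control. Lyz1 had 28.0, 74.1 and 286 CPM in LPCAT3-AKO and 28.2, 80.5 and 277 CPM in Control. Il1b had 33.3, 109 and 434 CPM in LPCAT3-AKO and 65.6, 142 and 504 CPM in Control. Ciita, which activates the class II genes that set the tertiles, had 3.20, 28.3 and 82.5 CPM in LPCAT3-AKO and 3.59, 21.6 and 74.8 CPM in Control. All 4 genes were highest in the highest tertile of each library. Mrc1, in contrast, had 2205, 2243 and 2137 CPM in LPCAT3-AKO and 2543, 2433 and 2148 CPM in Control. The order of Timd4 and Ccr2 was therefore the same within Lyve1+ Folr2+ cells as between them and the other C1q-high macrophages.

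**Figure D3:**
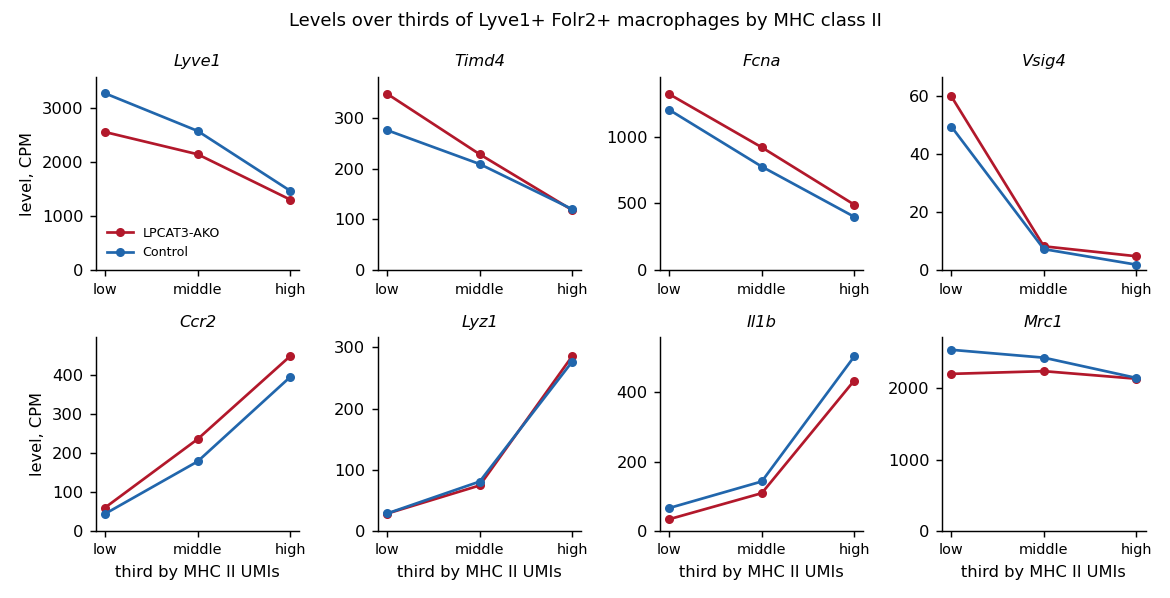
Levels in CPM (y, from 0) of 8 genes in Lyve1+ Folr2+ macrophages of the LPCAT3-AKO (red) and Control (blue) libraries over tertiles of cells by MHC class II UMIs (x, low to high), 1 point per tertile and library. Lyve1, Timd4, Fcna and Vsig4 step down and Ccr2, Lyz1 and Il1b step up in both libraries, and Mrc1 stays between 2137 and 2543 CPM.

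Vsig4, a complement receptor of resident macrophages, had 59.8, 8.28 and 4.87 CPM from low to high in LPCAT3-AKO and 49.4, 7.31 and 1.97 CPM in Control. Its UMIs came from few cells: 57 cells in LPCAT3-AKO (3.35%) and 50 in Control (2.04%) held 3 or more, and no other C1q-high macrophage did in either library. Timd4 was found in 96.5% of these cells in LPCAT3-AKO and 100% in Control, against 61.3% and 55.4% of Lyve1+ Folr2+ cells without a Vsig4 UMI. H2-Aa had 412 CPM in the Vsig4 cells of each library, against 2308 CPM in LPCAT3-AKO and 2746 CPM in Control in cells without Vsig4. Ccr2 had 25.7 CPM in LPCAT3-AKO and 6.37 CPM in Control, against 237 and 202 CPM without Vsig4. The Vsig4 cells were deeper, with median totals of 10342 UMIs in LPCAT3-AKO and 9345 in Control against 7656 and 6244, and they were picked after their values were seen.

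Lpcat3, the gene named in the genotype, was not lower in these macrophages. It had 22.9 CPM (332 UMIs) in LPCAT3-AKO and 21.9 CPM (366 UMIs) in Control, and 30.8 and 27.7 CPM over all kept barcodes. The deleted part of the gene is not stated in these sources, so UMIs of the transcript need not report on the deletion. Of 23 measured genes of phospholipid remodelling, none passed the size rule given below and their median log2 ratio was -0.02, next to 0.02 for all genes. Among them Mboat7, the acyltransferase for lysophosphatidylinositol, had 28.2 CPM in LPCAT3-AKO and 21.9 CPM in Control. Agpat3 had 66.5 and 72.0 CPM, and the secreted phospholipase gene Pla2g2d 222 and 237 CPM.

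Between the libraries, a gene passed the size rule when the higher of its levels was at least 20 CPM, the levels differed by a ratio of at least 1.5 and the counting interval of that ratio excluded 1. In Lyve1+ Folr2+ macrophages, 28 of 6020 genes were higher in LPCAT3-AKO (0.465%) and 17 lower (0.282%). These counts depended on the settings: they were 93 higher and 49 lower without the interferon and division limits, which kept 23 and 14 of those calls, and 9 and 7 at a limit of 50 CPM. With every cell weighted equally, 22 were higher and 18 lower, of which 16 and 11 were among those calls. In the other C1q-high macrophages, which are fewer and carry wider counting error, 100 of 5746 genes were higher (1.74%) and 64 lower (1.11%). The genes called in both populations were 11 higher (39.3% of the Lyve1+ Folr2+ list and 11.0% of the other list) and 7 lower (41.2% and 10.9%), and none was called in opposite directions. Both populations come from the same pair of libraries.

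**Figure D4:**
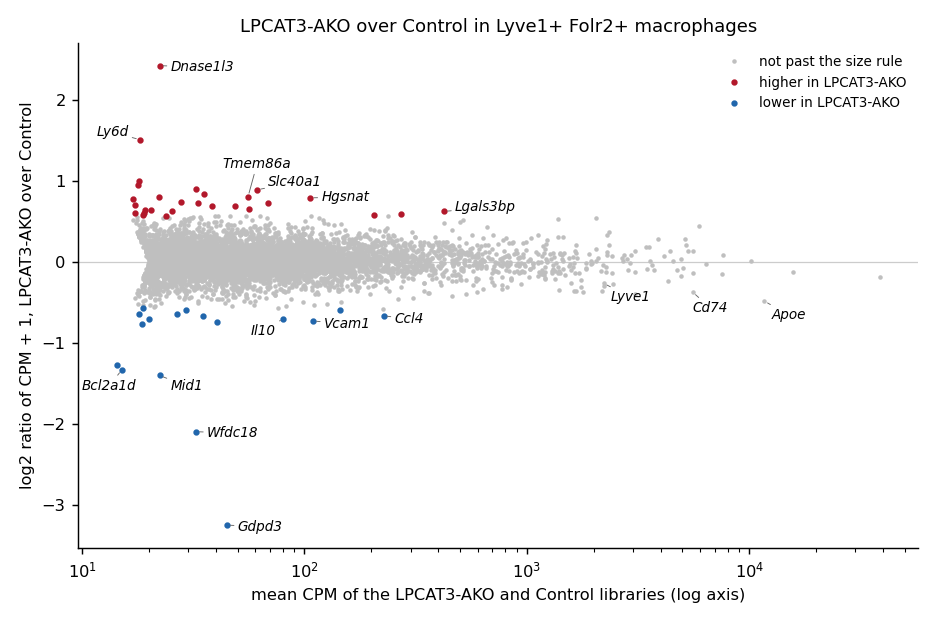
Log2 ratio of CPM + 1, LPCAT3-AKO over Control (y), against the mean CPM of the libraries (x, log axis) in Lyve1+ Folr2+ macrophages; each point is 1 of 6020 genes. The 28 genes past the size rule upwards are red and the 17 downwards are blue, with Dnase1l3 highest and Gdpd3 lowest.

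The widest difference was that of Gdpd3, an enzyme of the glycerophosphodiester phosphodiesterase family that releases lysophosphatidic acid from lysophospholipids. It had 7.73 CPM in LPCAT3-AKO (112 UMIs) and 81.7 CPM in Control (1366 UMIs), a ratio of 0.0947 (interval 0.0774 to 0.115). At equal depth it was found in 2.498% of Lyve1+ Folr2+ cells in LPCAT3-AKO and 19.3% in Control. The same direction was seen in the other C1q-high macrophages, with 10.6 and 57.3 CPM, and in Dcn-high cells, with 0.692 and 6.51 CPM. In the tertiles by MHC class II its log2 ratios were -3.33, -3.40 and -2.94 from low to high. Gdpd3 was thus lower in LPCAT3-AKO in each population and tertile looked at.

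Dnase1l3, a secreted DNase that digests DNA in microparticles of dying cells, was the highest. It had 38.3 CPM in LPCAT3-AKO (554 UMIs) and 6.34 CPM in Control (106 UMIs), a ratio of 6.04 (4.90 to 7.504). At equal depth it was found in 10.8% of cells in LPCAT3-AKO and 2.21% in Control, against 0.111% and 0.0578% of Dcn-high cells. In the other C1q-high macrophages it had 22.4 and 7.87 CPM and was also called. Its log2 ratios in the tertiles were 2.77, 3.31 and 1.90.

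Slc40a1 encodes ferroportin, the exporter of iron from macrophages. It had 80.0 CPM in LPCAT3-AKO and 42.7 CPM in Control, a ratio of 1.87 (1.71 to 2.06), and was found in 18.8% and 10.1% of thinned cells. It was also called in the other C1q-high macrophages, at 33.1 and 20.4 CPM. Other iron genes did not pass the rule: Cd163, the haemoglobin scavenger receptor, had 1293 CPM in LPCAT3-AKO and 1331 CPM in Control, Hmox1 788 and 804 CPM, and Fth1, ferritin heavy chain, 4651 and 5225 CPM. Slc40a1 was the 1 gene past the rule among 18 measured haem and iron genes, whose median log2 ratio was 0.09.

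Hgsnat and Tmem86a were among the higher genes, although none of the 32 genes of the lysosome list and none of the 23 of phospholipid remodelling passed the rule. Hgsnat, an acetyltransferase needed to degrade heparan sulfate in lysosomes, had 135 CPM in LPCAT3-AKO and 77.5 CPM in Control, a ratio of 1.74 (1.62 to 1.87). In the other C1q-high macrophages it had 50.5 and 41.6 CPM and was not called. Naglu and Sgsh, enzymes of the same degradation pathway that were picked out after their values were seen, had 30.9 against 19.7 CPM and 28.6 against 19.0 CPM. Ids, which acts in it too, missed the rule with 75.8 CPM in LPCAT3-AKO against 72.7 CPM in Control. Tmem86a, a lysoplasmalogenase, had 71.2 CPM in LPCAT3-AKO and 40.3 CPM in Control and was called in the other C1q-high macrophages as well, at 38.5 and 21.9 CPM. Among the remaining higher genes were Slc26a11, an anion transporter gene, at 28.4 and 15.9 CPM, Gyg, which primes glycogen synthesis, at 41.6 and 24.8 CPM, and Kif3a, a kinesin subunit, at 34.9 and 20.6 CPM. Il18bp, the secreted inhibitor of interleukin-18, had 21.6 CPM in LPCAT3-AKO and 12.2 CPM in Control.

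Hes1, Dbp, Cenpa and S100a4 were also higher. Hes1, a transcriptional repressor and Notch target, had 23.8 CPM in LPCAT3-AKO and 11.8 CPM in Control. In Dcn-high cells it had 146 and 86.8 CPM, and the part of free RNA in its difference was not tested. Dbp, an output gene of the circadian clock, had 24.4 and 11.8 CPM, and 8.53 and 6.11 CPM in Dcn-high cells. Cenpa, the centromeric histone H3 variant, had 42.5 and 22.3 CPM and was called in the other C1q-high macrophages too, at 32.8 and 17.0 CPM. In Dcn-high cells Cenpa had 9.81 CPM in LPCAT3-AKO and 2.25 CPM in Control. With Dcn at 0 UMIs in every cell, Hes1, Dbp, Gyg and Il18bp no longer passed the rule. S100a4, a calcium-binding protein gene, had 326 CPM in LPCAT3-AKO and 216 CPM in Control and was the 1 of 9 measured monocyte genes past the rule, while Ccr2 had 225 and 195 CPM.

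Ccl4, Il10, Vcam1, Clec4e and Ddit4 were among the lower genes. Ccl4, a chemokine for lymphocytes and monocytes, had 175 CPM in LPCAT3-AKO and 278 CPM in Control, a ratio of 0.630 (0.600 to 0.662). In the other C1q-high macrophages it had 745 and 737 CPM. Il10, an anti-inflammatory cytokine gene, had 61.1 CPM in LPCAT3-AKO and 99.7 CPM in Control, a ratio of 0.613 (0.565 to 0.666). In the other C1q-high macrophages Il10 had 71.5 and 107 CPM, a ratio of 0.669 (0.577 to 0.775), just short of a call. Among thinned Lyve1+ Folr2+ cells it was found in 8.99% and 12.2%. Its log2 ratios in the tertiles were -0.88, -1.14 and -0.09, so the high tertile showed little of the difference. These tertiles were cut separately in each library, at unlike class II levels. With Dcn at 0 UMIs in every cell the log2 ratio of Il10 was -0.52 and it was not called. Vcam1, an adhesion molecule, had 82.0 CPM in LPCAT3-AKO and 136 CPM in Control and was lower in the other C1q-high macrophages too, at 145 and 251 CPM. With the limits applied to thinned cells its log2 ratio was -0.43 and it was not called. Clec4e (Mincle), a receptor for glycolipids and dying cells, had 30.2 CPM in LPCAT3-AKO and 51.0 CPM in Control, against 248 and 238 CPM in the other C1q-high macrophages. Ddit4, a stress-induced inhibitor of mTORC1, had 26.7 and 42.9 CPM. Without the interferon and division limits, the log2 ratio was -0.52 for both Clec4e and Ddit4 and neither was called.

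Lower genes at small levels included Mid1, a ubiquitin ligase gene, at 11.8 CPM in LPCAT3-AKO and 32.8 CPM in Control, and Bcl2a1d, an anti-apoptotic BCL2 relative, at 8.15 and 22.001 CPM. Bcl2a1d belongs to a family of near-identical genes whose reads can be split between copies, so its level is uncertain. Its relatives Bcl2a1a and Bcl2a1b had 11.3 and 47.7 CPM in LPCAT3-AKO and 12.5 and 53.1 CPM in Control. Map3k6 had 13.6 and 23.7 CPM, and the non-coding RNA Snhg3 14.9 and 24.9 CPM. Ccl5, a chemokine of T cells and NK cells, had 7.94 and 20.6 CPM. A single cell gave 37.4% of the Ccl5 UMIs in LPCAT3-AKO, and with likely doublets removed its log2 ratio was -0.26. Wfdc18 and Ly6d, which passed the rule downwards and upwards, drew much on single cells: 72.6% of the Control UMIs of Wfdc18 and 28.5% of the LPCAT3-AKO UMIs of Ly6d came from 1 cell. Without the cells that carry epithelial RNA their log2 ratios were -0.04 and 0.18. Of the 45 genes past the rule in either direction (0.748% of those tested), 43 kept their sign in all tertiles by MHC class II, and these 2 did not. The tertiles hold most of the cells that gave the calls, without those with epithelial RNA, so a shared sign is no separate support.

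Several abundant genes differed by less than the rule requires. Apoe had 9762 CPM in LPCAT3-AKO and 13636 CPM in Control (log2 ratio -0.48). In the other C1q-high macrophages Apoe, at 3879 and 6283 CPM, and Ccl8, at 157 and 279 CPM, passed the rule downwards. In Lyve1+ Folr2+ cells Cd74 had 4859 and 6292 CPM (-0.37), H2-Aa 2207 and 2655 CPM (-0.27) and Ccl8 1426 and 1823 CPM (-0.35). Lyve1 itself differed by -0.26. Lgals3bp, a secreted glycoprotein that binds galectins, passed it with 514 CPM in LPCAT3-AKO and 334 CPM in Control, and had 420 and 320 CPM in Dcn-high cells. Atp5k, a subunit of mitochondrial ATP synthase, passed it with 247 and 165 CPM, and had 236 and 144 CPM in Dcn-high cells, so its difference was not limited to macrophages.

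The 22 lists held 361 distinct genes tested between the libraries, of which 7 (1.94%) passed the rule, beside 0.748% of all genes: S100a4, Hes1, Slc40a1 and Cenpa were higher, and Ccl4, Ccl5 and Il10 lower. The list medians stood beside a median of 0.02 over all genes. None of 30 genes of the resident signature passed (median 0.10), nor any of 28 scavenger receptors (0.09), of 15 genes of apoptotic cell uptake (0.13) or of 13 genes of lipid-associated macrophages (0.21). None of 32 lysosome genes passed, but 30 of them were above 0, with a median of 0.16 and a range of -0.05 to 0.52, where 55.3% of all genes were above 0. The highest was Cd68, a lysosomal membrane protein gene, with 610 CPM in LPCAT3-AKO and 425 CPM in Control, followed by Ppt1, palmitoyl-protein thioesterase, with 112 and 87.9 CPM. Grn, progranulin, had 2567 and 2037 CPM. Over the 32 lysosome genes in the other C1q-high macrophages, the median was 0.12 and 1 gene passed upwards. Of 14 heat shock genes none passed, and 1 of them was above 0, with a median of -0.24; the median was -0.26 in the other C1q-high macrophages. Hspa8, a constitutive chaperone, had 1986 and 2437 CPM. Of 15 chemokine genes, 2 were lower and 2 were above 0, with a median of -0.23.

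For the other lists, none of 10 MHC class II genes (median -0.12), 10 genes of Lyve1-negative macrophages (-0.11), 42 interferon genes (0.01), 29 immediate-early genes (-0.09), 14 cholesterol efflux genes and LXR targets (0.06), 11 eicosanoid genes (-0.04), 13 growth factors (0.14), 14 matrix and coagulation genes (-0.04) or 16 complement genes (0.13) passed the rule. Of 30 inflammatory genes 1 was lower (median -0.13), of 25 transcription factors 1 was higher (-0.03), of 9 monocyte genes 1 was higher (0.21) and of 9 cell cycle genes 1 was higher (-0.16). The medians of the eicosanoid, matrix, transcription factor, phospholipid remodelling, interferon and cell cycle lists turned sign under at least 1 alternative. Interferon and division genes were limited by the choice of cells, so their values hold only for the cells that remained.

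**Figure D5:**
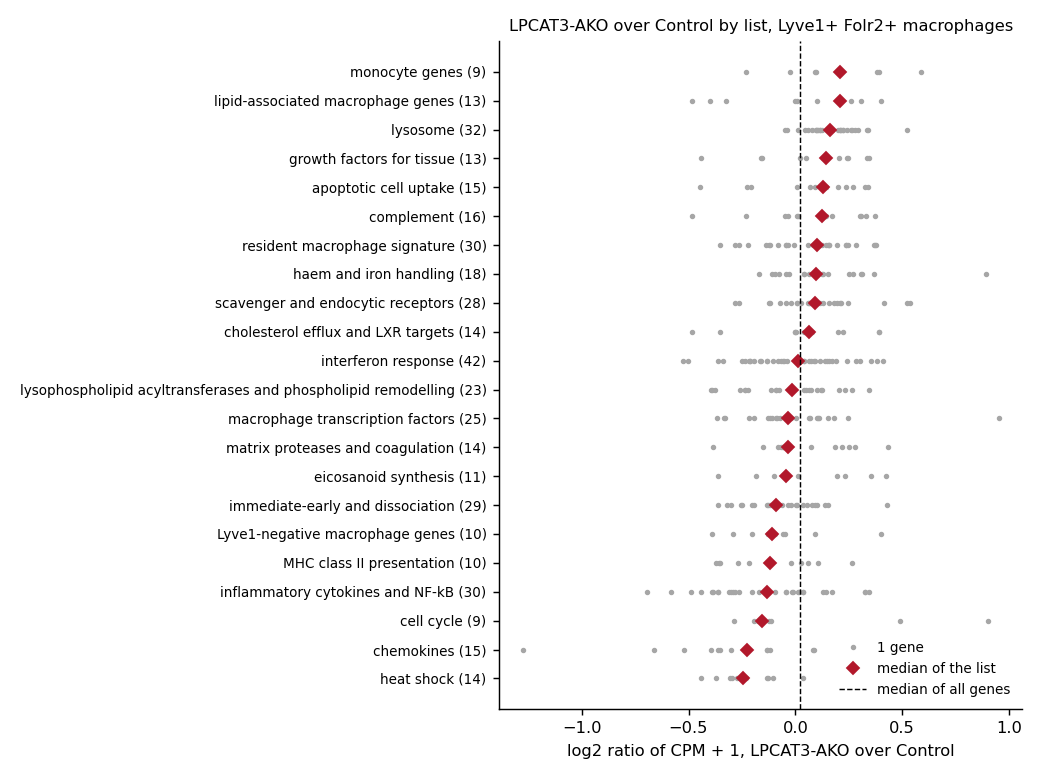
Log2 ratio of CPM + 1, LPCAT3-AKO over Control (x), of the measured genes of 22 lists in Lyve1+ Folr2+ macrophages; a grey point is 1 gene, a red diamond the median of its list, and the number behind a name the genes measured. The dashed line is the median of all 6020 genes (0.02). The lysosome list lies mostly right of the line (30 of 32 genes above 0) and the heat shock list mostly left of it (1 of 14 above 0).

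Markers of other cell types were present, with the highest sum for fibroblast genes. Only 707 of 1704 Lyve1+ Folr2+ cells in LPCAT3-AKO and 1141 of 2446 in Control held no Dcn UMI. Summed over 12 fibroblast genes, Lyve1+ Folr2+ cells had 1142 CPM in LPCAT3-AKO and 1173 CPM in Control, with none at 0, and the other C1q-high macrophages 1138 and 1226 CPM. Summed over 10 vascular endothelial genes they had 88.5 and 111 CPM, mostly Fabp4 (75.8 and 95.1 CPM), and over 6 lymphatic endothelial genes 5.04 and 4.48 CPM. The 7 mural genes had 25.6 and 17.3 CPM, the 10 dendritic cell genes 140 and 148 CPM, and the 13 genes of T, NK and B cells 15.8 and 22.3 CPM. The 7 mast cell genes had 42.5 and 38.0 CPM, the 7 neutrophil genes 27.9 and 28.3 CPM (Mmp8 and Ly6g at 0), the 7 adipocyte genes 12.6 and 13.1 CPM (Adrb3 at 0) and the 5 erythroid genes 80.1 and 75.2 CPM. The 7 epithelial genes had 206 CPM in LPCAT3-AKO and 142 CPM in Control. The mural and epithelial sums were thus higher and the T, NK and B cell sum lower in LPCAT3-AKO, and their part in the results above was not tested beyond the values given without epithelial RNA. Of the epithelial list's 3 measured genes, Krt18 and Krt19 were past the rule upwards. Its UMIs were concentrated in 8 Lyve1+ Folr2+ cells in LPCAT3-AKO and 10 in Control with 10 or more epithelial UMIs, whose keratin gene Krt8 had 2451 and 2973 CPM, against 10.9 and 4.91 CPM in the remaining cells. Those cells had median totals of 25923.5 and 20291.5 UMIs.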

How the data were processed

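Single-cell RNA of the stromal vascular fraction was measured with 10x Genomics in 1 LPCAT3-AKO and 1 Control library. The authors deposited raw UMI counts per gene and barcode, without normalization. Cell Ranger 6.1.2, Seurat 4.10 and the build mm10 are listed in the submitters' processing notes, and no step of Seurat is visible in the counts. Genes carry the deposited symbols; for 78 entries that share a symbol, the one with the most UMIs kept it. UMIs were summed per population and library and scaled to CPM, with numpy 2.4.6 and scipy 1.17.1. Log2 ratios are of CPM + 1. Ratios of UMIs carry exact binomial 95% intervals, shares Clopper-Pearson intervals and ratios of shares a log interval for binomial shares, for counting error only. Doublets were kept; Scrublet in scanpy 1.11.5 served as an alternative.

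The cells, the 22 gene lists and the 11 lists of other cell types were chosen with earlier results of these data known. Named were the 15 highest and 10 lowest genes against other C1q-high macrophages, the 12 highest and 12 lowest between libraries past the rule, the 15 most variable genes, the markers, Lpcat3, and up to 4 genes per list, leaving out of the first 2 rankings, in the first also the genes of the limits, mitochondrial, ribosomal, haemoglobin, immunoglobulin, sex-linked Xist and Y, Gm and Rik genes and markers of other cell types. Others were chosen after their values were seen, as examples. Some genes of the lists are not reported by name here. Alternatives changed depth, doublets, limits, weights, pseudocount, filter and centring. A promoter motif count was not run, and no sequence was used here.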

Additional observations from a re-analysis of the deposited data

How the results depend on the processing

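No paired analysis was possible because each group has 1 library, and none could be left out. The alternatives without shared barcodes, with Dcn at 0 UMIs and without epithelial RNA were chosen after seeing the data. The ratio of shares of kept barcodes was 0.833 with the limits on cells thinned to 5000 UMIs and 0.660 with Dcn at 0. Against other C1q-high macrophages, 150 genes were higher with cells weighted equally, and 179 were higher and 117 lower at 50 CPM. Between libraries, genes higher in LPCAT3-AKO numbered 44 on thinned cells, 93 without interferon and division limits, 53 with Dcn at 0, 68 at 10 CPM and 9 at 50 CPM. Of the 28 genes first called, 18, 23, 19, 28 and 9 were among them. Genes lower in LPCAT3-AKO numbered 49 without those limits, 30 with Dcn at 0, 41 at 10 CPM and 7 at 50 CPM, among them 14, 10, 17 and 7 of the 17. List genes past the rule numbered 33, 11, 14 and 4 in those 4 alternatives. Without the barcodes that occur in both libraries, 28 genes were higher and 19 lower between libraries. With cells weighted equally, 22 were higher and 18 lower, with 16 of the 28 and 11 of the 17 kept, and Ly6d, Il18bp, Gyg, Wfdc18, Bcl2a1d and Ccl5 were no longer called. Ly6d turned to -0.10 on thinned cells and Wfdc18 to 0.044 with Dcn at 0; the cause was not tested. Of the named genes, 5 of 24 between libraries and 17 of 25 between populations were called in every alternative. Depth limits genes near 20 CPM, and with 1 library per group no setting measures variation between animals.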
